A study of Homo sapiens with 8 samples.

Results

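The genes described here encode the cytoplasmic scaffolds and the non-claudin membrane proteins of the tight junction, the seal between neighbouring epithelial cells. They are OCLN (occludin), MARVELD2 (tricellulin), MARVELD3, LSR, F11R (the junctional adhesion molecule JAM-A), TJP1, TJP3, CGN (cingulin) and CGNL1 (paracingulin). They were chosen by name from the deposited count file, where all 9 were found among 58735 genes, and all 9 passed the filter on low counts that left 15135 genes to be tested. RNA was sequenced from EPC2-hTERT, a telomerase-immortalised human esophageal epithelial cell line, in 4 miR-155OE libraries and 4 CTRL libraries. The miR-155OE cells are a stable line made with a lentivirus that overexpresses miR-155-5p, and the labels give CTRL as the control genotype without saying whether it carries an empty vector. Both lines were grown alike: on inserts with 0.4 µm pores for 2 days, in medium with 1.8 mM calcium for 5 days and then at the air-liquid interface, where such cells stratify. The labels do not say whether the stable line is 1 clone, nor that libraries are separate cultures. The p-values therefore set the group difference only against the scatter among these samples, which may be technical. Since each library is a bulk sample, fewer cells of a type and less RNA per cell cannot be told apart.

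A tight junction closes the space between cells with strands of claudins and occludin in the membrane. The strands are held by PDZ-domain scaffolds of the zonula occludens family, among them the products of TJP1 and TJP3, which tie them to actin, and cingulin and paracingulin bind the scaffolds. Tricellulin and LSR, a receptor of the angulin family, mark the points where 3 cells meet. In stratified squamous epithelium the sealing junctions sit in the upper living layers.

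Sequencing gave 33.4 to 40.6 M counts (M, counts in units of 1000000) per miR-155OE library and 34.1 to 52.7 M per CTRL library, with 1.01 to 2.92% and 1.23 to 2.78% of them from mitochondrially encoded genes. Markers of the labelled cell type were present: the basal keratin KRT14 stood at 7581 ± 1562 CPM (counts per 1000000 counts of the library, after scaling) in miR-155OE and 7837 ± 1448 CPM in CTRL, and the squamous transcription factor TP63 at 240 ± 12.9 and 239 ± 21.9 CPM (SD, n = 4 each). The keratins KRT4 and KRT13 of the upper esophageal layers were low, KRT4 at 17.3 ± 20.8 CPM in miR-155OE and 95.4 ± 29.2 CPM in CTRL and KRT13 at 2.96 ± 3.58 and 11.4 ± 6.32 CPM (SD, n = 4 each). The leukocyte marker PTPRC had 1 read in all 8 libraries together, and the fibroblast genes COL1A2, COL3A1, LUM and DCN had 0. Other mesenchymal and immune markers were not empty. COL1A1 had 40486 reads and CD14 had 3169 reads in all 8 libraries together. The miR-155 host gene MIR155HG and the hairpin gene MIR155 had 0 reads in every library, and the overexpression itself was therefore not checked by these counts.

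MicroRNAs lower their targets mainly through matches between the seed, bases 2 to 8 of the microRNA, and the 3′ untranslated region (3′ UTR) of an mRNA. The mature sequence is shown because it is the agent labelled as overexpressed (RefSeq, GRCh38.p14, chr21:25573983-25574006, + strand), with the seed in capitals.
hsa-miR-155-5p: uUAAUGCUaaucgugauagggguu
A match was AGCATTA (7mer-m8), AGCATTAA (8mer) or GCATTAA (7mer-A1), searched on the mRNA strand of the longest 3′ UTR that GENCODE release 29 annotates for each gene. By this search 5 of the 9 genes held 7 matches in all, and LSR, TJP1, TJP3 and CGNL1 held 0. The counts are per gene, and whether other transcripts of a gene carry its matches was not tested. Of 12510 tested genes with an annotated 3′ UTR, 17.6% held at least 1. The 7 matches are shown because they are the places where the microRNA could pair directly with these mRNAs, each in 30 bases of mRNA (GRCh38) with the match in capitals.
OCLN (chr5:69555988-69556017, + strand): tgttggcgttgGCATTAActagctggatgt
MARVELD2, first site (chr5:69443658-69443687, + strand): ttcccaggtgtAGCATTAcagcttctgact
MARVELD2, second site (chr5:69444179-69444208, + strand): aatccctaggtGCATTAAagtttcagtcac
MARVELD3 (chr16:71635939-71635968, + strand): ccattgtgtgaAGCATTAAacccaacatct
F11R, first site (chr1:160997354-160997383, - strand): ttcagccaggtGCATTAAcagacctcccta
F11R, second site (chr1:160995217-160995246, - strand): aacaacaatttGCATTAAaaaatatccaat
CGN (chr1:151537611-151537640, + strand): gaaggatggtcAGCATTAggctgatgggga
The 8mer, the longest match, was in MARVELD3, 1147 bases after its stop codon. MARVELD2 and CGN each had a 7mer-m8, and the remaining 4 matches, in OCLN, MARVELD2 and F11R, were 7mer-A1. The 3′ UTRs differed much in length, and longer ones hold a match more often. LSR and TJP3 have 3′ UTRs of 105 and 129 bases, and 1.30% and 0.935% of tested genes with 3′ UTRs of like length (the shorter at least 0.8 times the longer) held a match. The 3′ UTR of CGNL1 is 3237 bases long, and 29.1% of genes of like length held one. The share was 21.2% for TJP1. For the genes with a match it was 39.6% for OCLN, 33.4% for F11R, 24.4% for MARVELD2, 16.03% for MARVELD3 and 11.7% for CGN.

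**Figure D1:**
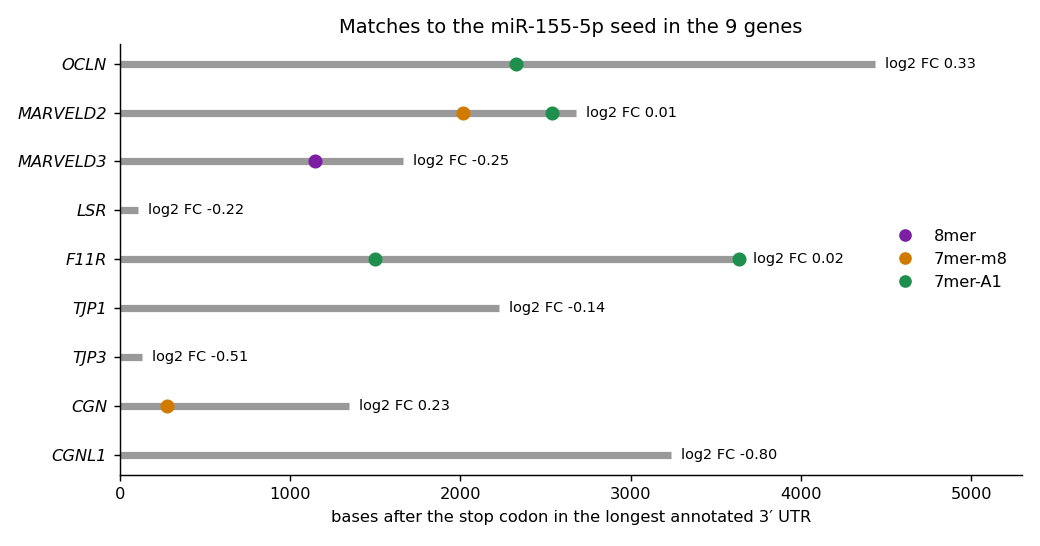
Longest annotated 3′ UTR of each of the 9 genes (grey bars, bases after the stop codon on the x axis) with matches to the miR-155-5p seed as points coloured by kind, and the log2 fold change of miR-155OE over CTRL on group alone beside each bar. CGNL1 and TJP3, with the lowest log2 fold changes (−0.80 and −0.51), carry no match, OCLN, with the highest (0.33), carries 1, and MARVELD3, with the 8mer, stands at −0.25.

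The question put to the 9 genes was whether their RNA differed between the line labelled as overexpressing miR-155-5p and CTRL. Fitted on group alone, 0 of the 9 genes passed edgeR's quasi-likelihood test at an adjusted p under 0.05 over all tested genes, where 3.27% of all genes passed (2.19% higher and 1.08% lower). Unadjusted, 5 of the 9 had a p under 0.05 (OCLN, MARVELD3, LSR, TJP3 and CGNL1), against 19.0% of all genes. The log2 fold changes of miR-155OE over CTRL ran from −0.80 (CGNL1) to 0.33 (OCLN), with a median of −0.14 where the median of all tested genes was −0.01, and 5 were below 0 and 4 above. DESeq2 on group alone called 2 of the 9, CGNL1 and LSR, both lower, against 8.08% of all genes (5.13% higher and 2.95% lower). By limma-voom 0 of the 9 passed, against 3.32% of all genes (2.13% higher and 1.20% lower). Libraries carry numbers 1 to 4 in both groups, and the deviations of same-numbered libraries from their group means correlated in all 4 pairs, but miR-155OE 3 was closer to CTRL 4 (0.399) than to CTRL 3 (0.184). With the replicate number as a block, 3 of the 9 genes fell (CGNL1, TJP3 and LSR) and none rose, against 12.9% of all genes that passed, 5.44% lower and 7.47% higher. In the authors' deposited table CGNL1 was the 1 member of 9 at an adjusted p under 0.05 (0.00693), where 4.73% of the genes listed were. That share is over 25529 listed genes, and the other shares are over 15135 tested genes, so they are not on the same base.

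**Figure D2:**
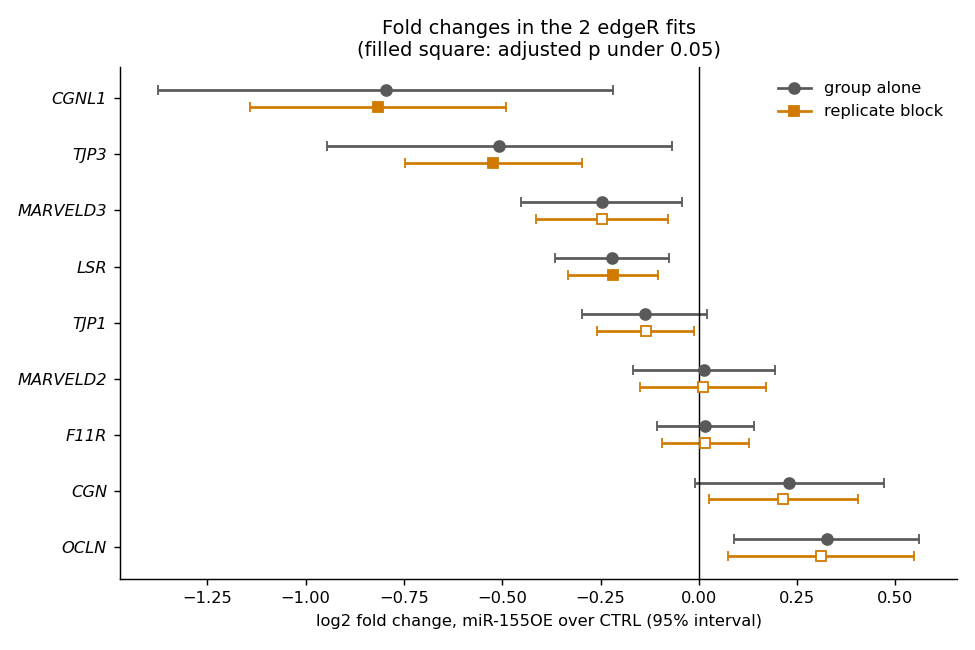
Log2 fold change (miR-155OE over CTRL, x axis) of the 9 genes with 95% intervals from edgeR, on group alone (circles) and with the replicate number as a block (squares, filled where the adjusted p was under 0.05). CGNL1, TJP3 and LSR are the filled ones, at −0.82, −0.52 and −0.22.

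CGNL1 encodes paracingulin, a scaffold of both tight and adherens junctions that brings regulators of small GTPases to the cell border (ENSG00000128849; GRCh38, chr15:57375967-57550727, + strand). It had 48.0, 49.1, 25.0 and 33.5 CPM in miR-155OE libraries 1 to 4, against 91.1, 67.0, 60.1 and 52.0 CPM in CTRL libraries 1 to 4. Every miR-155OE library lay below every CTRL library, the nearest being miR-155OE 2 and CTRL 4. The means were 38.9 ± 11.7 CPM in miR-155OE and 67.5 ± 16.9 CPM in CTRL (SD, n = 4 each). The log2 fold change on group alone was −0.80 (SE 0.25, 95% interval −1.38 to −0.22, edgeR adjusted p = 0.137). With the replicate block it was −0.82 (SE 0.13, interval −1.14 to −0.49, edgeR adjusted p = 0.0140), and the 4 pairs stood at −0.92, −0.45, −1.27 and −0.64. The blocked call was lost without pair 1 (log2 fold change −0.78, edgeR adjusted p = 0.0699) and stood without each other pair. Of its exonic bases 1.19% are shared with AC025271.2, an antisense gene with at most 10 reads in a library.

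CGN encodes cingulin, the paralogue of CGNL1, which binds ZO-1 and the exchange factor GEF-H1 (ENSG00000143375; chr1:151510510-151538692, + strand). It stood at 36.7, 46.4, 30.9 and 35.6 CPM in miR-155OE libraries 1 to 4, against 33.4, 32.2, 31.6 and 30.4 CPM in CTRL libraries 1 to 4. The groups overlapped, since miR-155OE 3 lay within the CTRL range. The log2 fold change was 0.23 (interval −0.01 to 0.47, edgeR adjusted p = 0.286) on group alone and 0.22 with the block (edgeR adjusted p = 0.126). It was 0.11 without miR-155OE replicate 2, the highest of the 8 libraries, and CGN passed with the block when pair 3 was left out (0.30, edgeR adjusted p = 0.0340). Per base of gene length, the ratio of CGNL1 to CGN was 1.00, 0.808, 0.618 and 0.717 in the miR-155OE libraries and 2.09, 1.59, 1.45 and 1.31 in the CTRL libraries. CGNL1 was thus at or below the level of CGN in the miR-155OE libraries and above it in the CTRL libraries, and these ratios did not overlap.

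**Figure D3:**
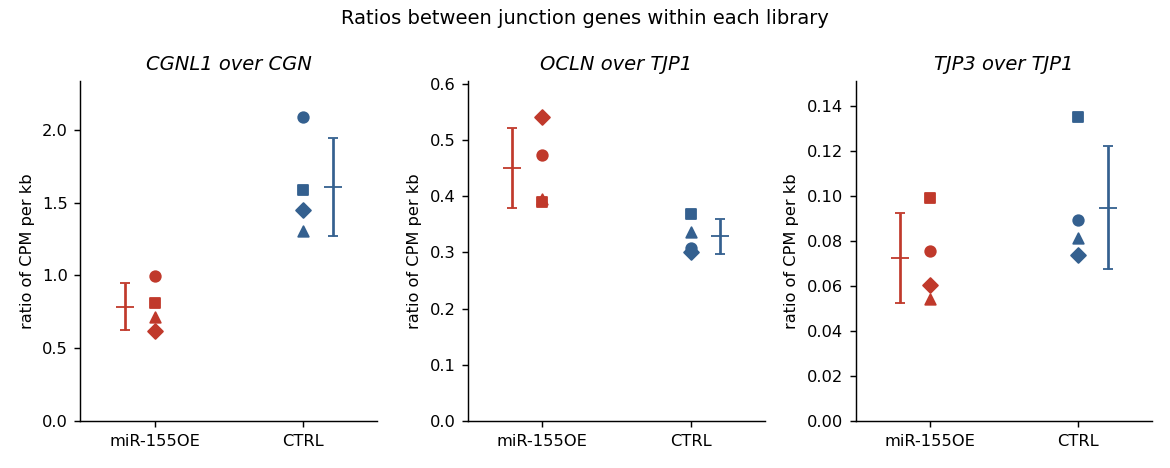
Ratios of CPM per kb within each library (points, marker shape by library number) with the mean and SD of each group (n = 4). The CGNL1 to CGN ratio (0.785 ± 0.163 in miR-155OE, 1.61 ± 0.339 in CTRL) and the OCLN to TJP1 ratio (0.450 ± 0.0713 and 0.329 ± 0.0309) do not overlap between groups, and the TJP3 to TJP1 ratio does.

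The promoters of this pair of paralogues are printed because the log2 fold changes of the 2 genes had opposite signs (RefSeq, GRCh38.p14, 250 bases before to 50 bases after the start, capitals marking ACGTG, the core of the hypoxia response element, on either strand).
CGNL1 (chr15:57376255-57376554, + strand): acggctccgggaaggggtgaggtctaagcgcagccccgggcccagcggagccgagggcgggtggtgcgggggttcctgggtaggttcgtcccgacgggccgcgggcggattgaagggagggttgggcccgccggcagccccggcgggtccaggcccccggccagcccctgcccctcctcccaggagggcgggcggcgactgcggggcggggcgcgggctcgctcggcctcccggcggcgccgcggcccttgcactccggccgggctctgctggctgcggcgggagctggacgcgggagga
CGN (chr1:151511137-151511436, + strand): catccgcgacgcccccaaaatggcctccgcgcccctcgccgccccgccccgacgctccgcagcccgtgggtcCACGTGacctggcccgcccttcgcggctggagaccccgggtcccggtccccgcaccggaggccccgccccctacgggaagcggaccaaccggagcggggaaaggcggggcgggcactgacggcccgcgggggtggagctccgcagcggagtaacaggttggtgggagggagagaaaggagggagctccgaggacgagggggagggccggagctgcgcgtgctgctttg
ACGTG was not among the letters of the CGNL1 window, whereas the CGN window held CACGTG, which reads as ACGTG on both strands. Over the 7 members with a RefSeq window (F11R and MARVELD3 had none), 5 of 12 windows held ACGTG or its reverse CACGT, against 21.4% of 35116 windows of the same length. These were the windows of MARVELD2, LSR and CGN, 1 of OCLN and 1 of TJP3. Among them the log2 fold change was below 0 for LSR and TJP3 and above 0 for OCLN, MARVELD2 and CGN. Whether the motif bears on the level of any of these genes was not tested. CAGGTG, the E-box bound by Snail repressors, or its reverse CACCTG was in 4 of 12 (both of OCLN, 1 of TJP1 and 1 of TJP3), against 20.6%. AACCGGTT, the palindromic site of grainyhead factors, was in 0 of 12, against 0.134%. The windows of 1 gene are not independent of each other.

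TJP3 encodes ZO-3, a relative of ZO-1 found in epithelia (ENSG00000105289; chr19:3708109-3750813, + strand). It had 7.09, 8.62, 5.36 and 4.82 CPM in miR-155OE libraries 1 to 4, from 236, 308, 216 and 176 reads, against 9.26, 11.8, 7.58 and 8.18 CPM in CTRL libraries 1 to 4, from 313, 408, 397 and 317 reads. The groups overlapped, with miR-155OE 2 above CTRL 3 and CTRL 4, while each miR-155OE library lay below the CTRL library of its number. The log2 fold change on group alone was −0.51 (SE 0.20, interval −0.95 to −0.07, edgeR adjusted p = 0.193). With the block it was −0.52 (SE 0.10, interval −0.75 to −0.30, edgeR adjusted p = 0.00848), and leaving out any 1 pair kept it below the threshold (edgeR adjusted p 0.0124 to 0.0485). On group alone it passed without miR-155OE replicate 2 (−0.67, edgeR adjusted p = 0.0478).

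TJP1 encodes ZO-1, the main scaffold, which binds claudins, occludin and actin (ENSG00000104067; chr15:29699367-29968865, − strand). It stood at 240 ± 8.14 CPM in miR-155OE and 264 ± 20.2 CPM in CTRL (SD, n = 4 each), between 232 and 251 CPM in miR-155OE libraries and between 234 and 277 CPM in CTRL libraries. Its log2 fold change was −0.14 (interval −0.30 to 0.02, edgeR adjusted p = 0.337), and the pair ratios were −0.14, −0.01, −0.21 and −0.17. The ratio of TJP3 to TJP1 per base of length was 0.0722 ± 0.0200 in miR-155OE and 0.0947 ± 0.0275 in CTRL, with overlapping groups.

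LSR is the receptor that recruits tricellulin to the points where 3 cells meet (ENSG00000105699; chr19:35248330-35267964, + strand). It had 91.6, 94.7, 86.9 and 90.7 CPM in miR-155OE libraries 1 to 4, against 112, 112, 98.3 and 102 CPM in CTRL libraries 1 to 4. Every miR-155OE library lay below every CTRL library, with little spread in either group. The means were 91.0 ± 3.20 CPM in miR-155OE and 106 ± 7.09 CPM in CTRL (SD, n = 4 each). On group alone the log2 fold change was −0.22 (SE 0.07, interval −0.37 to −0.07, edgeR adjusted p = 0.0947). With the block it was −0.22 (SE 0.05, edgeR adjusted p = 0.0196), a change of −14.0%. The blocked call was lost without pair 1 (edgeR adjusted p = 0.160) and without pair 4 (0.0567). The other angulin genes were scarce, ILDR1 with 62 reads in all libraries together and ILDR2 with 0.

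MARVELD2 encodes tricellulin itself (ENSG00000152939; chr5:69415065-69444330, + strand). It stood at 27.6, 27.2, 27.6 and 22.9 CPM in miR-155OE libraries 1 to 4, against 25.9, 28.3, 24.5 and 25.7 CPM in CTRL libraries 1 to 4. The groups overlapped, and miR-155OE 4 was the lowest of the 8 libraries. The log2 fold change was 0.01 (interval −0.17 to 0.20, edgeR adjusted p = 0.953). This gene carries a pair of the seed matches printed above. LSR stood at 6.39 ± 0.638 times the level of MARVELD2 per base of length in miR-155OE and at 7.47 ± 0.327 times in CTRL (SD, n = 4 each), with overlapping groups.

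OCLN encodes occludin, a 4-pass MARVEL-domain protein like tricellulin that joins the claudin strands (ENSG00000197822; chr5:69492292-69558104, + strand). It had 71.5, 54.5, 77.0 and 56.4 CPM in miR-155OE libraries 1 to 4, against 51.2, 51.8, 49.8 and 54.2 CPM in CTRL libraries 1 to 4. The lowest miR-155OE library lay just above the highest CTRL library, and miR-155OE 1 and 3 stood well above the rest. The means were 64.8 ± 11.1 CPM in miR-155OE and 51.8 ± 1.80 CPM in CTRL (SD, n = 4 each). On group alone the log2 fold change was 0.33 (SE 0.11, interval 0.09 to 0.56, edgeR adjusted p = 0.126). It did not pass with the block either (0.31, edgeR adjusted p = 0.0879), but did in DESeq2 with the block (adjusted p = 0.0280, where 12.7% of all genes passed, 7.49% higher and 5.18% lower). OCLN also passed on group alone without miR-155OE replicate 2 (0.40, edgeR adjusted p = 0.0302). Of the blocked edgeR fits that left out 1 pair, only that without pair 2 called it (0.39, edgeR adjusted p = 0.0429). The pseudogene copy OCLNP1 had 7 to 19 reads per library, against 1731 to 3102 of OCLN. Per base of length, OCLN stood at 0.474, 0.391, 0.540 and 0.395 times TJP1 in the miR-155OE libraries and at 0.308, 0.369, 0.302 and 0.336 times in the CTRL libraries. Against MARVELD2 it stood at 1.95 ± 0.266 times in miR-155OE and 1.58 ± 0.0936 times in CTRL (SD, n = 4 each), with overlapping groups.

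MARVELD3, the third MARVEL-domain protein of the junction, holds the 8mer match in its longest annotated 3′ UTR (ENSG00000140832; chr16:71626161-71642114, + strand). It stood at 14.3, 15.4, 12.9 and 15.4 CPM in miR-155OE libraries 1 to 4, against 18.9, 17.5, 15.3 and 17.3 CPM in CTRL libraries 1 to 4. The groups touched, since miR-155OE 2 and 4 lay just above CTRL 3, and all 4 pairs were lower in miR-155OE. The log2 fold change was −0.25 (SE 0.09, interval −0.45 to −0.04, edgeR adjusted p = 0.176) on group alone and −0.25 (SE 0.08, edgeR adjusted p = 0.0567) with the block. Antisense genes share 18.1% of its exonic bases, PHLPP2 (log2 fold change 0.01, edgeR adjusted p = 0.966) and AC009097.2 (at most 34 reads in a library). No source used here says whether reads were assigned by strand, so those from the shared stretch cannot be told apart.

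F11R encodes JAM-A, an immunoglobulin-fold adhesion protein that binds the polarity scaffold PAR-3 (ENSG00000158769; chr1:160995211-161021348, − strand). It was the steadiest of the 9, at 155.3, 158.9, 161.3 and 161.3 CPM in miR-155OE libraries 1 to 4, against 155.8, 153.9, 163.3 and 156.4 CPM in CTRL libraries 1 to 4. The log2 fold change was 0.02 (interval −0.11 to 0.14, edgeR adjusted p = 0.910). Another protein-coding gene on the same strand, AL591806.3, shares 36.6% of its exonic bases and had at most 8 reads in a library. Its relatives JAM2 and JAM3 had 2 and 10 reads in all libraries together, and the related receptor CXADR stood at 30.6 ± 2.73 CPM in miR-155OE and 29.7 ± 3.62 CPM in CTRL (SD, n = 4 each; log2 fold change 0.05, edgeR adjusted p = 0.849).

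**Figure D4:**
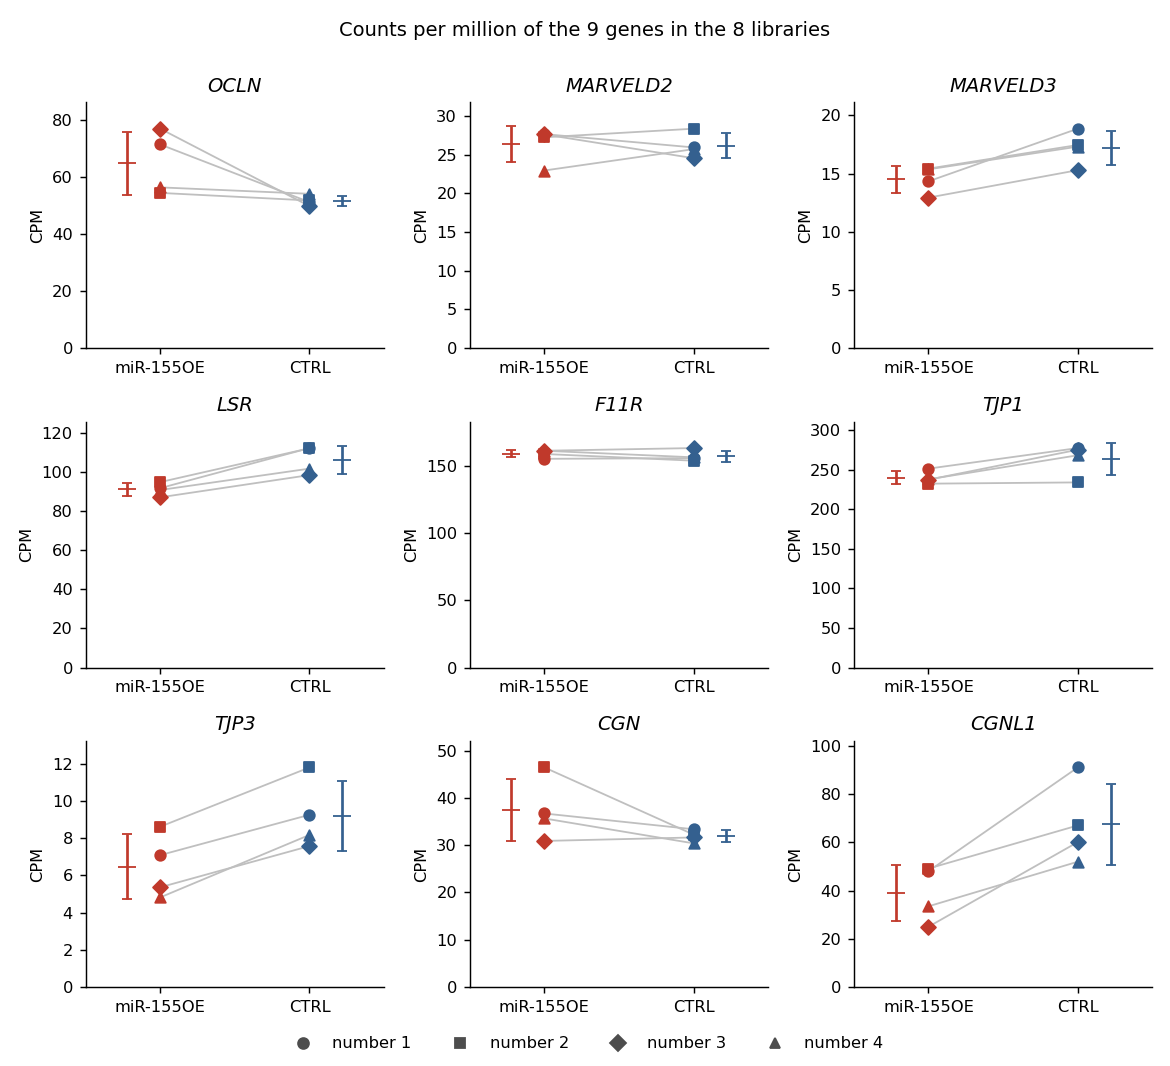
CPM of each of the 9 genes (y axis from 0) in the 4 miR-155OE libraries (red) and the 4 CTRL libraries (blue), marker shape and grey line joining libraries of the same number, bars the mean and SD. In CGNL1, TJP3, LSR, MARVELD3 and TJP1 all 4 lines are lower at the miR-155OE end, and in OCLN all 4 are higher there.

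All 4 pairs were lower in miR-155OE for 5 of the 9 genes (MARVELD3, LSR, TJP1, TJP3 and CGNL1), against 16.9% of all tested genes, and all 4 were higher for 1 (OCLN), against 18.8%. The groups did not overlap in 3 of the 9 (OCLN, LSR and CGNL1), against 11.4% of all tested genes. LSR and CGNL1 were the 2 that lay lower in miR-155OE, against 5.25% of all genes, and OCLN the 1 that lay higher, against 6.16%. Of the genes overlapping the spans of the 9, PHLPP2 had 141 to 170 reads per miR-155OE library and 138 to 225 per CTRL library, and each of the others had at most 88 reads in a library (AC022613.2, antisense to TJP1). Per base of gene length the order of levels in CTRL was LSR, F11R, TJP1, CGNL1, OCLN, MARVELD2, CGN, MARVELD3 and TJP3, from 36.4 ± 2.43 to 2.18 ± 0.443 CPM per kb (SD, n = 4). In miR-155OE the order was F11R, LSR, TJP1, OCLN, CGN, MARVELD2, CGNL1, MARVELD3 and TJP3, from 31.4 ± 0.562 to 1.53 ± 0.410 CPM per kb (SD, n = 4). CGNL1 was the seventh of the 9 in miR-155OE, at 4.49 ± 1.35 CPM per kb, and the fourth in CTRL, at 7.80 ± 1.95 CPM per kb (SD, n = 4 each). Neighbours whose ranges overlapped were F11R with LSR, CGN with MARVELD2, MARVELD2 with CGNL1 and MARVELD3 with TJP3 in miR-155OE, and CGNL1 with OCLN, MARVELD2 with CGN and MARVELD3 with TJP3 in CTRL. Since 36.6% of the exonic bases of F11R are shared with another gene on its strand and no source used here says how shared reads were assigned, its level per kb may be too low and its place beside LSR is uncertain. The 9 genes together summed to 109 to 115 CPM per kb in miR-155OE libraries and 118 to 127 CPM per kb in CTRL libraries.

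**Figure D5:**
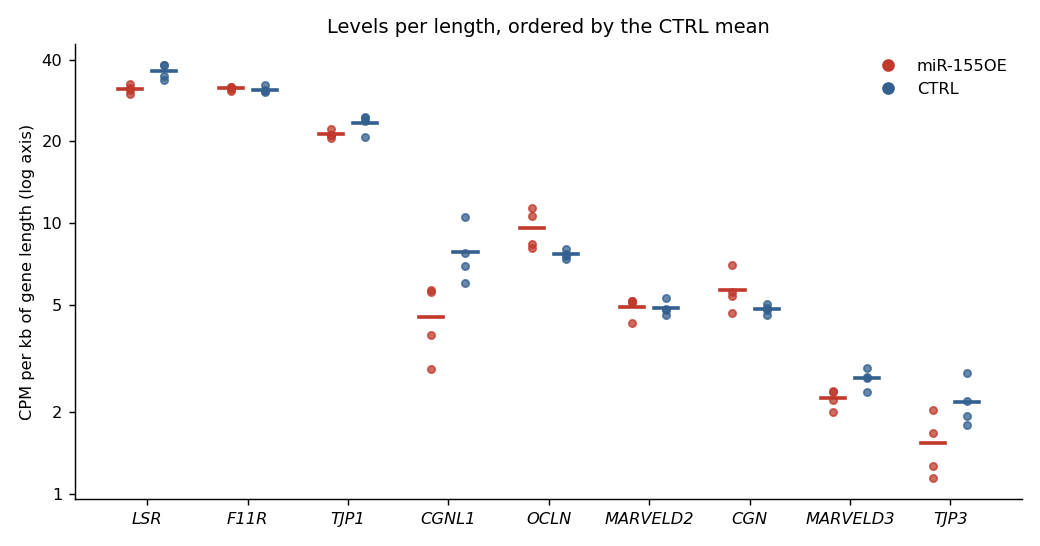
CPM per kb of listed gene length (log axis) of the 9 genes in each miR-155OE (red) and CTRL (blue) library, with the group mean as a line, ordered by the CTRL mean. LSR, F11R and TJP1 stand above 20 CPM per kb in both groups, and CGNL1 has the widest gap between the group means on this log axis.

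Across the 8 libraries, the profiles most like that of CGNL1 were those of ABLIM3, an actin-binding LIM protein, HCLS1, a cortactin-related actin regulator, and CRYBG2. Likeness was the root mean square difference of mean-centred log2 CPM over 8 libraries, among 10266 other genes, and was 0.147, 0.153 and 0.170 for these 3. ABLIM3 averaged 44.0 ± 14.8 CPM in miR-155OE and 74.0 ± 8.35 CPM in CTRL (SD, n = 4 each). For TJP3 they were NIPAL3 (0.0961), the RNA-binding protein RBMS2 and the sialyltransferase ST3GAL4 (0.123). For LSR they were PEA15 (0.0273), a death-effector-domain phosphoprotein, HPS6 (0.0383) and the mitochondrial ADP/ATP carrier SLC25A6 (0.0397). The 8 libraries share number and group, and LSR itself varied least of these 3 genes.

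Of 27 other membrane genes of the tight junction, 13 had enough reads to be tested: 1 rose, 0 fell and 12 did not pass on group alone (edgeR, median log2 fold change 0.04). The one that rose was CLMP, an adhesion protein related to CXADR, at 5.82 ± 2.19 CPM in miR-155OE and 1.67 ± 0.0953 CPM in CTRL (SD, n = 4 each; log2 fold change 1.80, edgeR adjusted p = 0.00756). The block kept CLMP and added CLDN7, the claudin in the title of the series, as lower (−0.66, SE 0.08, edgeR adjusted p = 0.000838), which on group alone stood at −0.59 (edgeR adjusted p = 0.559). Of the exonic bases of CLDN7 10.8% are shared with AC003688.1 on the same strand. CLDN23 had the next lowest p of the list, at 0.223 ± 0.117 CPM in miR-155OE and 0.613 ± 0.244 CPM in CTRL (edgeR adjusted p = 0.123). The list's median was close to that of all genes (−0.01). Of all tested genes 2.19% rose and 1.08% fell on group alone, and 7.47% rose and 5.44% fell with the block.

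Of 21 other scaffolds and polarity proteins, 20 were tested: 0 rose, 1 fell and 19 did not pass on group alone (median log2 fold change −0.10). The gene that fell was MPP5 (PALS1), the Crumbs complex scaffold, at 28.2 ± 4.46 CPM in miR-155OE and 41.1 ± 3.10 CPM in CTRL (SD, n = 4 each; log2 fold change −0.54, edgeR adjusted p = 0.0283). Its 3′ UTR of 2863 bases held 2 seed matches, and 26.3% of tested genes with 3′ UTRs of like length held a match. Whether the matches bear on its level was not tested. With the block 2 fell, MPP5 and AMOTL2, an angiomotin that binds junction scaffolds (−0.29, SE 0.07, edgeR adjusted p = 0.0239). For this list and the next, the shares of all tested genes were 2.19% higher and 1.08% lower on group alone. With the block they were 7.47% higher and 5.44% lower. Among 23 signalling and cytoskeletal partners, all tested, 0 passed on group alone and 2 fell with the block (median log2 fold change −0.05 on group alone, where 16 of 23 were below 0). These were PLEKHA7, which holds paracingulin at the adherens junction (−0.53, SE 0.13, edgeR adjusted p = 0.0213), and the non-muscle myosin MYH10 (−0.23, SE 0.06, edgeR adjusted p = 0.0336). ROCK1, a kinase of the actomyosin belt and second by p in that list, stood at −0.17 (edgeR adjusted p = 0.254), and ARHGEF2, the GEF-H1 that cingulin binds, at 0.17 (edgeR adjusted p = 0.409). CDC42, singled out after its values were seen, had 7 to 39 reads per library and was hardly measured. Another gene on the same strand shares 57.1% of its exonic bases, and whether that bears on its count was not tested.

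Few differentiation markers passed the test, but their summed levels differed between libraries. Over all tested genes 2.19% rose and 1.08% fell on group alone, and 7.47% rose and 5.44% fell with the block. The summed level of 8 markers of moist mucosal squamous cells was 385 to 1693 CPM in miR-155OE and 1754 to 2378 CPM in CTRL, without overlap, and 8 of 8 had a log2 fold change below 0, though 0 passed on group alone (edgeR, smallest adjusted p 0.0522). SPRR3 had the highest mean of them, at 378.5 ± 330 CPM in miR-155OE and 1078 ± 261 CPM in CTRL (SD, n = 4 each). Taken singly, SPRR3, KRT4 and KRT78 did not overlap between groups, and KRT13, CRNN, MUC21, ECM1 and RHCG did. Of all tested genes 5.25% lay lower in miR-155OE without overlap. The median log2 fold change of the 8 markers was −1.29 on group alone, where that of all tested genes was −0.01. The summed level of 11 markers of epidermal cells, mostly KRT1 and KRT10, was 7443 to 26050 CPM in miR-155OE and 3855 to 10220 CPM in CTRL, and 3 of 11 rose on group alone (KRT1, DSC1 and DSG1). With the block none of those 3 passed (edgeR adjusted p 0.0837, 0.0794 and 0.0984) and KRTDAP rose. FLG, LOR and KRT2 of that list stood at −0.12, −0.09 and 0.07 (edgeR adjusted p 0.742, 0.819 and 0.925). Of 10 basal markers 0 passed on group alone and 4 fell with the block, among them LAMA3, LAMB3 and SOX2. Of 9 simple columnar markers 2 had enough reads to be tested, and KRT18 fell with the block (edgeR adjusted p = 0.0310). The list summed to 35.2 to 48.4 CPM in miR-155OE and 45.3 to 54.0 CPM in CTRL, with MUC2 and CDX2 at 0. The part of the differentiation markers in the values of CGNL1, TJP3 and LSR was not tested. Of 9 immune, 6 endothelial and 5 melanocyte markers, 2 of each list were tested. Immune markers summed to 9.21 to 16.2 CPM in miR-155OE and 7.99 to 10.1 CPM in CTRL, nearly all from CD14. That gene rose with the block (edgeR adjusted p = 0.0184). Endothelial ones summed to 1.37 to 2.88 and 1.91 to 2.99 CPM, and melanocyte ones to 2.63 to 3.25 and 2.66 to 3.34 CPM. Of 10 mesenchymal markers 3 were tested, and CDH2 fell, with the block TWIST1 too (edgeR adjusted p = 0.0290). CDH2 was scarce, at 0.130 ± 0.0325 CPM in miR-155OE and 0.658 ± 0.288 CPM in CTRL (SD, n = 4 each), from 129 reads in all. The list summed to 100 to 224 CPM in miR-155OE and 96.8 to 150 CPM in CTRL, mostly COL1A1.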

How the data were processed

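RNA-seq was measured in 8 libraries, 4 miR-155OE and 4 CTRL. HISAT2 2.0.5, the counter featureCounts 1.5.0-p3, DESeq2 and the build GRCh38 are named in the submitters' processing notes, and strand setting, options and annotation release are not given in the sources used here. Per the file headers, the first deposited table gives the raw count of each Ensembl gene, in whole numbers. The other one, also deposited by the authors, gives normalised signal (from the values, counts over 1 size factor per library) with the authors' log2 fold change and the authors' p-value and adjusted p-value. It was used only for its calls and values of the 9 genes. All 58735 genes of the count file are in GENCODE release 29, 58724 of them with the same start and end.

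The main test used edgeR 4.0.16 (R 4.3.3). After filterByExpr, which left 15135 genes, and scaling by TMM, the robust quasi-likelihood F test was fitted on group alone, with Benjamini-Hochberg adjustment over all tested genes at a false discovery rate of 0.05. CPM used the TMM-scaled library sizes, and log2 CPM for likeness and pairing a prior count of 2 and genes with a mean of at least 2. SEs (log2 fold change over the root of F) and the 95% intervals made with them restate the test. DESeq2 1.42.0, limma 3.58.1 (voom), RLE factors, no filter, the replicate block and leaving out libraries or pairs were the alternatives; a fit without robust variances was added after seeing the data. The test was tried on simulated data. Figures used matplotlib 3.10.9 and tables pandas 2.3.3 and numpy 2.4.6 in Python 3.11.15.

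The labels do not say what a library number shares. Over 10267 genes, deviations of same-numbered miR-155OE and CTRL libraries from their group means had correlations of 0.578, 0.497, 0.184 and 0.607 (numbers 1 to 4), all over 0.1. For 3 of the 4 miR-155OE libraries the same-numbered CTRL library was the best match, and miR-155OE 3 matched CTRL 4 better (0.399). In the replicate block and the pair values, samples were treated as paired on that ground, which is the data and not the labels. The main test on group alone was unpaired. Genes are not independent replicates. The members and lists were chosen with earlier results of these data known. The text names all 9 genes, genes overlapping them, the 2 genes of lowest p in each pathway list with CLDN7, CXADR, JAM2 and JAM3 (1 further relative is not reported here), the 3 genes most like CGNL1, TJP3 and LSR, and marker genes; MYH10, ARHGEF2, CDC42, ILDR1, ILDR2, OCLNP1 and the gene sharing exonic bases with CLDN7 on its strand were added after their values were seen.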

Additional observations from a re-analysis of the deposited data

Results flagged for a closer look

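MARVELD2 was lowest in miR-155OE replicate 4, at 22.9 CPM, where the other miR-155OE libraries stood between 27.2 and 27.6 CPM and the CTRL libraries between 24.5 and 28.3 CPM. The gap to its nearest neighbour was 0.912 of the range of the 4 miR-155OE libraries, past Dixon's 95% critical value for 4 samples. Each of the 9 genes was examined in each group, 18 sets of 4 libraries in all, and chance flags about 5% of such sets.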

How the results depend on the processing

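The 0 of 9 genes called on group alone stayed 0 with RLE factors, with no filter, with limma-voom and without robust variances. It was 2 with DESeq2, 3 with the replicate block and 4 with the replicate block in DESeq2, where OCLN was the further gene. Leaving out 1 library on group alone gave 0 to 2, and leaving out 1 pair under the replicate block gave 1 to 4. Over all genes, the 495 called became 782 with no filter, 1223 in DESeq2, 1955 with the replicate block and 1917 with the block in DESeq2, 479 of the 495 being called with the block too. Without 1 library there were 130 to 1224, the highest without miR-155OE replicate 2, and without pairs 1 to 4 in turn under the block 543, 2197, 1407 and 1075. The 8 genes other than MARVELD2 kept their direction under every alternative. MARVELD2, at 0.01, ranged from −0.0167 to 0.0786 without 1 library, and under the block was −0.0128 without pair 1 and −0.0415 without pair 3. TJP3 had the fewest reads of the 9 genes, 176 to 408 per library.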

Other observations

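Several of the 9 genes differed between library numbers in the same way in both groups. In miR-155OE, libraries 1 and 2 both lay above libraries 3 and 4 for 4 of the 9 genes (LSR, TJP3, CGN and CGNL1), against 23.1% of all tested genes, and in CTRL for 6 (those 4 with MARVELD2 and MARVELD3), against 22.6%. The spread within groups was largest for CGNL1 (coefficient of variation 30.1% in miR-155OE and 25.0% in CTRL) and TJP3 (26.7% and 20.3%), and smallest for F11R (1.79% and 2.59%). OCLN varied by 17.1% in miR-155OE and 3.48% in CTRL, and CGN by 17.4% and 3.90%. The labels name no batch, and whether the numbers mark one was not tested.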
